A study of Mus musculus with 2 samples.

Results

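Wide Isl1 peaks away from promoters were mostly tandem repeats at their centre, 204 of 250 (81.6%), against 27.4% of narrower peaks and 58.4% of those from 700 to under 1000 bp, and included a GC-rich repeat family and minisatellites. The 400 bp window used for tandem repeats reached past the ends of the narrowest peaks. Runs of at least 25 purines or pyrimidines, found in 87.2% of the wide peaks, were less frequent than in narrower peaks, where 97.4% held one. In the deposited list of Isl1 peaks from E8.25-E9 mouse embryos, these peaks were chosen by a width, end minus start, of at least 1000 bp, by a distance of more than 1 kb and at most 500 kb from the assigned transcription start site (TSS), and by a protein-coding RefSeq identifier (NM_). Of the 48295 peaks in the list, 351 were at least 1000 bp wide. Of these, 72 were assigned to another kind of RefSeq identifier, 11 lay within 1 kb of the TSS and 18 lay beyond 500 kb, which left 250 wide distal peaks assigned to 237 genes. The 35089 peaks under 1000 bp in the same distance range, again with an NM_ identifier, served as the comparison, and wide peaks were 0.707% of all 35339 distal peaks.

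The study mapped the binding of Isl1 in the early heart by chromatin immunoprecipitation with sequencing (ChIP-Seq). Cardiogenic mesoderm and heart regions of C57BL/6 embryos, for which no mutation or treatment is labelled, were pooled from 60 to 80 embryos. They were fixed in 1% formaldehyde for 15 min, and the chromatin was sheared by sonication into pieces 200 to 500 bp long. A monoclonal Isl1 antibody, 2 to 5 µg, was used for precipitation. An input sample of the same tissue belongs to the experiment and was not analysed here. The dissected region held Isl1-positive progenitors together with other cells, and pooling leaves no measure of the spread between embryos.

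Isl1 is a LIM-homeodomain transcription factor of second heart field progenitors, the cells that build the right ventricle and the outflow tract, and homeodomains of its kind recognise the core TAAT. The width of a ChIP-Seq peak depends on how far the enriched fragments reach, so that several neighbouring sites, a long uniform site, or reads from many copies of 1 sequence placed over a repeat can each give a wide peak. Tandem repeats are copies of a short unit lying head to tail, called microsatellites when the unit is a few bases and minisatellites when it is longer.

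The sequences under the peaks were read from the mm9 genome, forward strand, 5′ to 3′. The first set shows long purine or pyrimidine runs, uninterrupted stretches of at least 25 bases of A and G or of C and T, with each run in capitals. They are the starts of the longest runs of Camk2n1, an inhibitor of a calcium-dependent kinase, and of Slc16a10, an aromatic amino acid transporter.
Camk2n1, chr4:138058450-138058599: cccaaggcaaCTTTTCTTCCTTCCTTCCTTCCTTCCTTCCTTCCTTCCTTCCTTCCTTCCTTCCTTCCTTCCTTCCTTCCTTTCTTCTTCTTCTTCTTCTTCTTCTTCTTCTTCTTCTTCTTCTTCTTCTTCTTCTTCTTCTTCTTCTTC
Slc16a10, chr10:39874384-39874533: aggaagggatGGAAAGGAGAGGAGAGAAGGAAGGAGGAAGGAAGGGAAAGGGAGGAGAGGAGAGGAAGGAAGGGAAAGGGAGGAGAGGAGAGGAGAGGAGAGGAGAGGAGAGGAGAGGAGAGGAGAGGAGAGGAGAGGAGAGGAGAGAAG
The Camk2n1 run passed from CTTC units to CTT units, and the Slc16a10 run was of purines.

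The second set shows a repeat family shared by many of the widest peaks, with the 9-base motif CTCCTGCTC or its reverse complement GAGCAGGAG in capitals. The stretches are the centres of the widest peak, assigned to the ephrin receptor gene Epha3, and of the peak assigned to the potassium channel gene Kcnk16.
Epha3, chr16:63461588-63461787: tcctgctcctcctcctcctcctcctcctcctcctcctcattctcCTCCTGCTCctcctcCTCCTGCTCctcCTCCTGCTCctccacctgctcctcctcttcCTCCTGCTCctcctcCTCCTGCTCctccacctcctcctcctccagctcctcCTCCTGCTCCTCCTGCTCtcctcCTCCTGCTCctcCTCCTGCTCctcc
Kcnk16, chr14:21074372-21074571: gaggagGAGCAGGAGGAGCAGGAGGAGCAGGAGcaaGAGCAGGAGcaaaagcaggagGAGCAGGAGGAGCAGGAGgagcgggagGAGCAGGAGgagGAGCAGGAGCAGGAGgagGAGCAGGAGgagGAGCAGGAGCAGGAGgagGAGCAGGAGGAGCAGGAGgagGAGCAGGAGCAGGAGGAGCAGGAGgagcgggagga
The G of the motif, or the C of its reverse complement, interrupts a tract that is otherwise of pyrimidines or purines, and the Kcnk16 peak held no run of 25 bases.

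The third set shows minisatellites with no run at all, with 1 repeat unit in capitals. The genes are Snx16, a sorting nexin, Smurf2, a ubiquitin ligase of the TGF-β pathway, Klhdc4, which encodes a kelch domain protein, and Slc51a, an organic solute transporter.
Snx16, chr3:10712772-10712895: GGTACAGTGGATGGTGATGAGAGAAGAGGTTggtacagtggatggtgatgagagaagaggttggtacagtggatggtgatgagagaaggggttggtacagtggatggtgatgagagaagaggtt
Smurf2, chr11:106808368-106808526: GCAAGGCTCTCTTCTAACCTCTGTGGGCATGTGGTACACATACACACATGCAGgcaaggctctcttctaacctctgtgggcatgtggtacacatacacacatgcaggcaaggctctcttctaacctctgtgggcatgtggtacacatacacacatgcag
Klhdc4, chr8:124348583-124348735: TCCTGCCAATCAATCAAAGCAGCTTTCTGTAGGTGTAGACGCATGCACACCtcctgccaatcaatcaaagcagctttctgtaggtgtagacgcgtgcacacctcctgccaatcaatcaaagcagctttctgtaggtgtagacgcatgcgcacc
Slc51a, chr16:32490344-32490451: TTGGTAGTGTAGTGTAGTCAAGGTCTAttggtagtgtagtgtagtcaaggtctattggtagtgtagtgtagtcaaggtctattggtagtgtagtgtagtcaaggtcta
The unit was 31 bp at Snx16, 53 bp at Smurf2, 51 bp at Klhdc4 and 27 bp at Slc51a, and the copies shown were identical or differed at few bases.

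The last stretch shows a peak with neither a run nor a tandem repeat. It was assigned to Shroom3, a regulator of apical constriction, lies in a coding exon and is given with its CpG dinucleotides in capitals.
Shroom3, chr5:93371401-93371600: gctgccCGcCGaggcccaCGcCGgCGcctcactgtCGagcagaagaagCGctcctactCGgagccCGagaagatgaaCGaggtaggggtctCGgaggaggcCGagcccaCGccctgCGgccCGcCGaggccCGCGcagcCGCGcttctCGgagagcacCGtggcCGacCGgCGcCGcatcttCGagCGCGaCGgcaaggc

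Since the list has no measure of enrichment and does not state its read depth, the peaks could not be ranked by strength. The data are 1 list with no values for single replicates, so no test was run. Shares are given with 95% Wilson intervals and medians with 95% order-statistic intervals, and differences of shares, in percentage points, with 95% Newcombe intervals. All these cover the sampling of peaks only, and neighbouring or related peaks are not independent of each other.

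The wide distal peaks were selected on width and distance, so these values describe the choice. Their widths ran from 1000 to 3271 bp with a median of 1108.5 bp, whereas the narrower distal peaks had a median of 466 bp. Many members lay close to the threshold: 117 of the 250 were under 1100 bp, 29 reached 1500 bp and 10 reached 2000 bp. Just inside the threshold, at 1000 bp, were peaks of Spp1, the osteopontin gene, Aass, a lysine-degrading enzyme, and Vmn2r54, a vomeronasal receptor. Just outside were peaks of Rpp40 and Hs2st1, each 1 bp short of the threshold, and of Itpr2 at 996 bp.

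Runs of at least 25 bp were common in the wide distal peaks but were less often at their centre than in narrower peaks. In the 200 bp around the midpoint, 170 of 250 wide peaks held a run (68.0%, interval 62.0 to 73.5%), against 95.4% of the narrower peaks, a difference of -27.4 points (interval -33.4 to -21.9). Among peaks from 700 to under 1000 bp the share was 92.7%, so that most of the drop lay in the widest class. In windows of the same size 5 kb to either side of the wide peaks, 5.01% held a run. Over the whole peak, 218 wide peaks held a run (87.2%, interval 82.5 to 90.8%), against 97.4% of the narrower peaks, a difference of -10.2 points (interval -14.9 to -6.59), and 95.2% of peaks from 700 to under 1000 bp. Of the 80 wide peaks without a central run, 48 held one elsewhere in the peak, and 31 had runs on both sides of the midpoint.

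**Figure D1:**
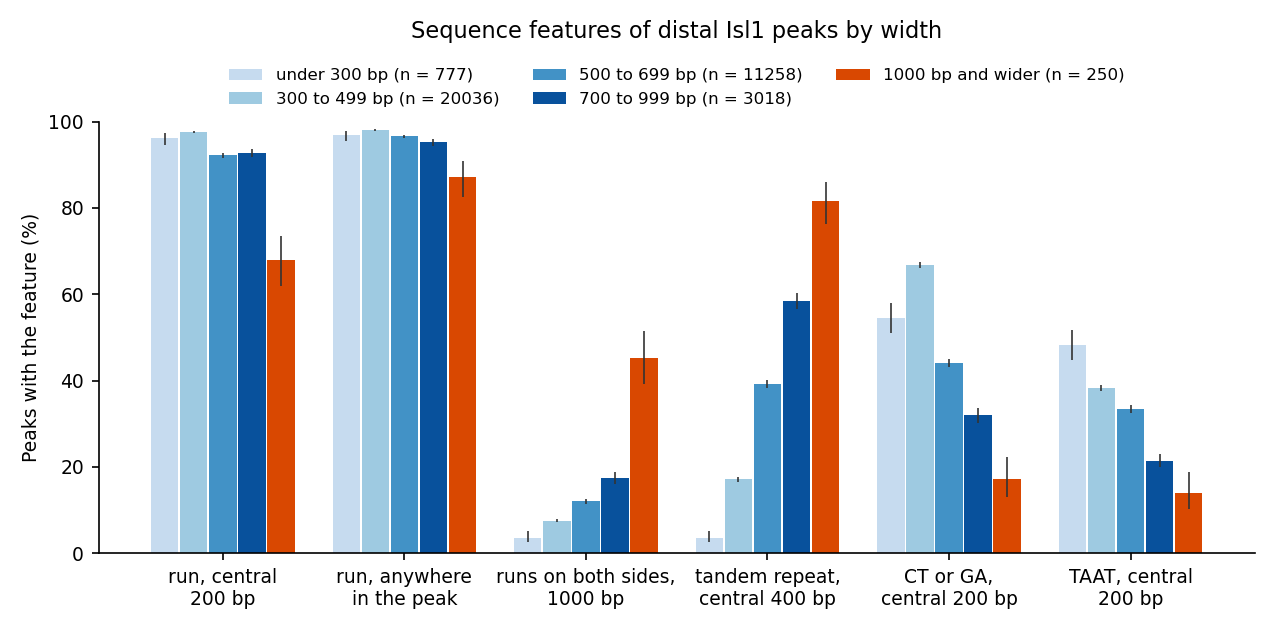
Share of distal Isl1 peaks, in percent, that hold each sequence feature, in 5 classes of peak width, with bars for the shares and error bars for 95% Wilson intervals. The widest class, in orange, has a central run in 68.0% of peaks, a tandem repeat in 81.6% and TAAT in 14.0%.

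Runs covered more bases around the midpoint of the wide peaks. In 1000 bp around the midpoint, the median number of bases in runs was 434 bp for the wide peaks (interval 351 to 480 bp), 241 bp for peaks from 700 to under 1000 bp and 111 bp for peaks from 300 to under 500 bp. Inside the peaks themselves the medians were 472, 238 and 106 bp, at median widths of 1108.5, 764 and 395 bp. The 1000 bp window lies inside every wide peak but reaches past the ends of narrower ones. Differences in values from this window therefore depend in part on width. The longest run in this window had a median of 233.5 bp (interval 173 to 268 bp) in wide peaks, of 110 bp in narrower ones and of 177 bp in peaks from 700 to under 1000 bp, which lies inside the interval of the wide peaks. Runs lay on both sides of the midpoint within this window in 45.2% of the wide peaks (interval 39.1 to 51.4%) and in 9.73% of the narrower ones, a difference of 35.5 points (interval 29.4 to 41.7), with 17.4% from 700 to under 1000 bp. Around the midpoint the share of wide peaks inside a run formed a broad plateau, 50.4% next to the midpoint and still 15.7% at 488 bp to its left, where peaks from 700 to under 1000 bp were at 1.69%. That position lies inside every wide peak but outside most peaks from 700 to under 1000 bp. This contrast is therefore set in part by the choice on width.

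**Figure D2:**
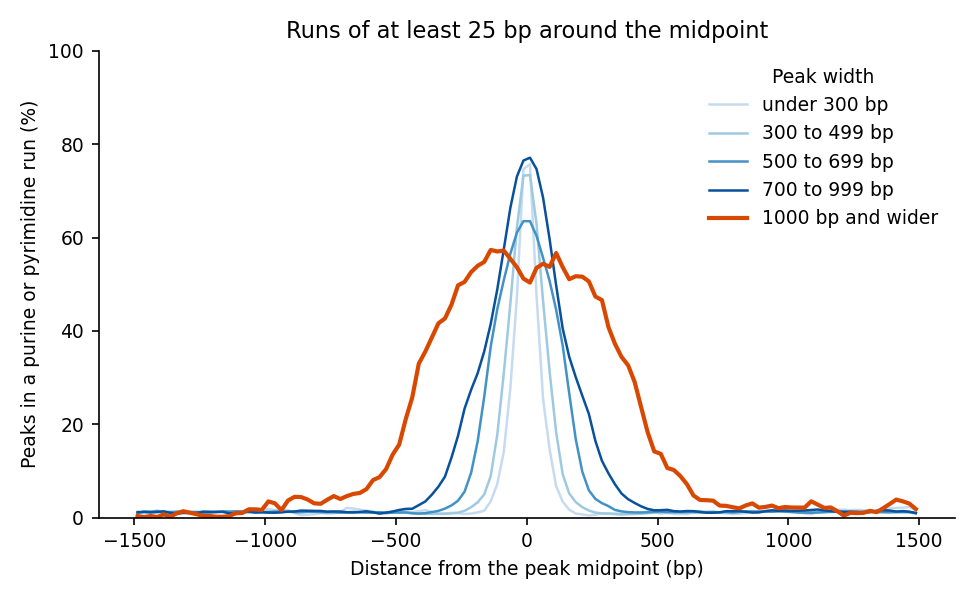
Share of distal Isl1 peaks, in percent, that lie inside a purine or pyrimidine run of at least 25 bp at each distance in bp from the peak midpoint, in bins of 25 bp, with 1 line for each width class. Peaks of at least 1000 bp form a broad plateau, at 50.4% beside the midpoint, and narrower classes form sharp peaks. Beyond the ends of the narrower peaks, their lines show flanking sequence.

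Short repeats of defined units were also counted. CT or GA repeats of at least 4 units lay in the central 200 bp of 17.2% of the wide peaks (interval 13.0 to 22.4%), against 56.2% of the narrower peaks, a difference of -39.0 points (interval -43.2 to -33.8), and 31.9% of peaks from 700 to under 1000 bp. CA or TG repeats were present in 8.40% of the wide peaks (interval 5.56 to 12.5%) and 18.4% of the narrower ones, but in 8.08% of those from 700 to under 1000 bp, so that this share was not particular to the wide peaks. The homeodomain core TAAT, counted on both strands, was found in the central 200 bp of 14.0% of the wide peaks (interval 10.2 to 18.8%), 21.4% of peaks from 700 to under 1000 bp, 48.3% of peaks under 300 bp and 72.1% of the windows 5 kb from wide peaks. The GC content of the central 200 bp had a median of 52.0% in wide peaks and 54% in peaks from 700 to under 1000 bp, so that it was not highest in the wide peaks. In the windows 5 kb away from wide peaks it had a mean of 43.1%. The part of base composition in the count of TAAT was not tested.

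To find tandem repeats of any unit, the 400 bp around the midpoint were compared with themselves at every shift from 1 to 150 bp, and a window counted as a tandem repeat if at least 60% of its bases equalled the base 1 unit earlier. By this measure 204 of 250 wide peaks were tandem repeats (81.6%, interval 76.3 to 85.9%), against 27.4% of the narrower peaks, a difference of 54.2 points (interval 48.9 to 58.5). The share was 3.60% under 300 bp, 17.1% from 300 to under 500 bp, 39.1% from 500 to under 700 bp and 58.4% from 700 to under 1000 bp, so that each wider class had a higher share. The 400 bp window reached past the ends of all peaks under 300 bp and of many from 300 to under 500 bp, into flanking sequence. From 500 bp upward it lay inside the peaks. The part of peak width in the rise was not tested. In windows 5 kb from the wide peaks the share was 0.802%. Runs and tandem repeats can overlap, since a long run can be built of repeated units, as in the Camk2n1 run shown above. How often this was so was not counted.

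Over the whole peak, 151 of the 250 wide peaks passed the tandem measure. The unit was 6 bp in 41 of them, 3 bp in 34, 2 bp in 13, 5 bp in 12 and 4 bp in 10. Units of 7 to 9 bp were found in 11 peaks, of 10 to 19 bp in 19, of 20 to 60 bp in 10 and of over 60 bp in 1. Most of the short units were found in peaks that also held a run, whereas 10 of the 11 peaks with units of 20 bp or more held none.

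By kinds defined after the sequences had been seen, and assigned in this order, 176 wide peaks (70.4%) had a longest run of at least 100 bp, 28 (11.2%) were repeats of the 9-base motif, 30 (12%) were other tandem repeats, 11 (4.4%) had shorter runs and 5 (2%) had neither. A longest run of at least 100 bp was found in 55.5% of the narrower peaks and in 80.3% of those from 700 to under 1000 bp, above the interval of the wide peaks (64.5 to 75.7%). The GC content of the whole peak had a median of 47.6% in the first kind and 62.5% in the motif repeats.

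Among the 176 peaks with a run of at least 100 bp, the longest run was of purines on the forward strand in 95. Its middle lay at 47.7% of the peak's length in the median, with quartiles of 36.7% and 58.6%. In 57 of the wide peaks the longest run reached 500 bp, in 46 at least 5 separate runs were found, and in 96 runs made up more than 50% of the bases. The longest run of all, 1387 bp, filled most of the 1994 bp peak of Olfr467, an olfactory receptor gene, 5.03 kb upstream of the TSS. It was followed by 1111 bp in an intron of the phospholipase D gene Pld1, 1099 bp in an intron of the drug transporter gene Abcc1, 1084 bp at Camk2n1 and by a run in an intron of the lipid kinase gene Dgki. The peaks of Pld1 and Dgki were 1181 and 1172 bp wide, and the run took up 94.0% and 85.2% of the peak.

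Width and the longest run were nearly unrelated in rank within the wide peaks (Spearman's rho -0.06 over 250 peaks), and related in the narrower peaks (rho 0.39 over 35089 peaks). All these peaks come from the same library, and the rho values are given without a test. A run inside a peak cannot be longer than the peak, and the groups are split at a width of 1000 bp. The rho values of the groups are therefore not directly comparable. Most of the 10 peaks of at least 2000 bp had a longest run under 100 bp, as is seen in the plot of width against the longest run.

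**Figure D3:**
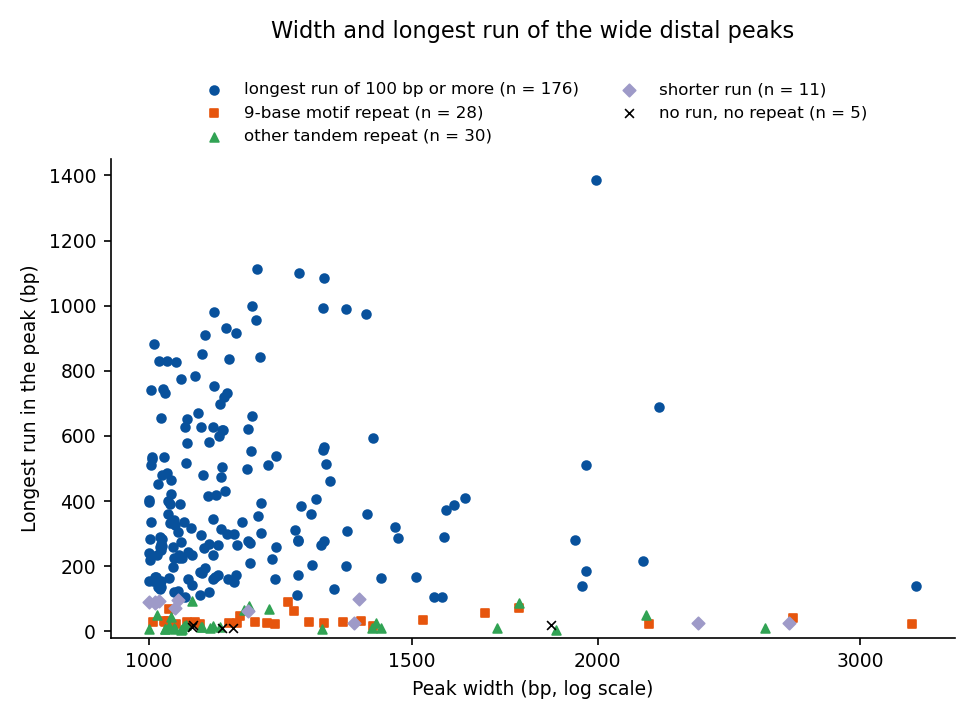
Longest run in bp against peak width in bp, on a log axis, for the 250 wide distal Isl1 peaks, with 1 point for each peak and symbols for 5 kinds of sequence. Runs over 1000 bp lie in peaks between 1000 and 2000 bp wide, and of the 10 peaks of at least 2000 bp those of Slc16a10 at 689 bp, Rbbp6 at 215 bp and Epha3 at 140 bp have a run of at least 100 bp.

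Of the 10 widest peaks, 5 were repeats of the 9-base motif. The widest, 3271 bp at chr16:63460052-63463323, was assigned to Epha3, 402.3 kb downstream of its TSS in intergenic sequence, and held 155 copies of the motif and 10 runs. The next, 3250 bp at chr14:21072847-21076097, lay 13.9 kb downstream of the Kcnk16 TSS and held 257 copies, the most of any wide peak. Peaks of the bitter taste receptor gene Tas2r134, at 2702 bp, and of the ferroxidase-like gene Hephl1, at 2165 bp, held 219 and 210 copies. Rbbp6, which encodes a ubiquitin ligase that binds the retinoblastoma protein, had a peak of 2145 bp with 130 copies. Other kinds of sequence were found in the group too. The peak of Slc16a10 was 2199 bp wide with 6 runs that made up 76.5% of it. The Snx16 peak, 2590 bp at chr3:10712772-10715362, was built of the 31 bp unit shown above, and 94.3% of its bases equalled the base 1 unit earlier. Rhou, which encodes a small GTPase, had peaks of 2685 and 2333 bp in the group.

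**Figure D4:**
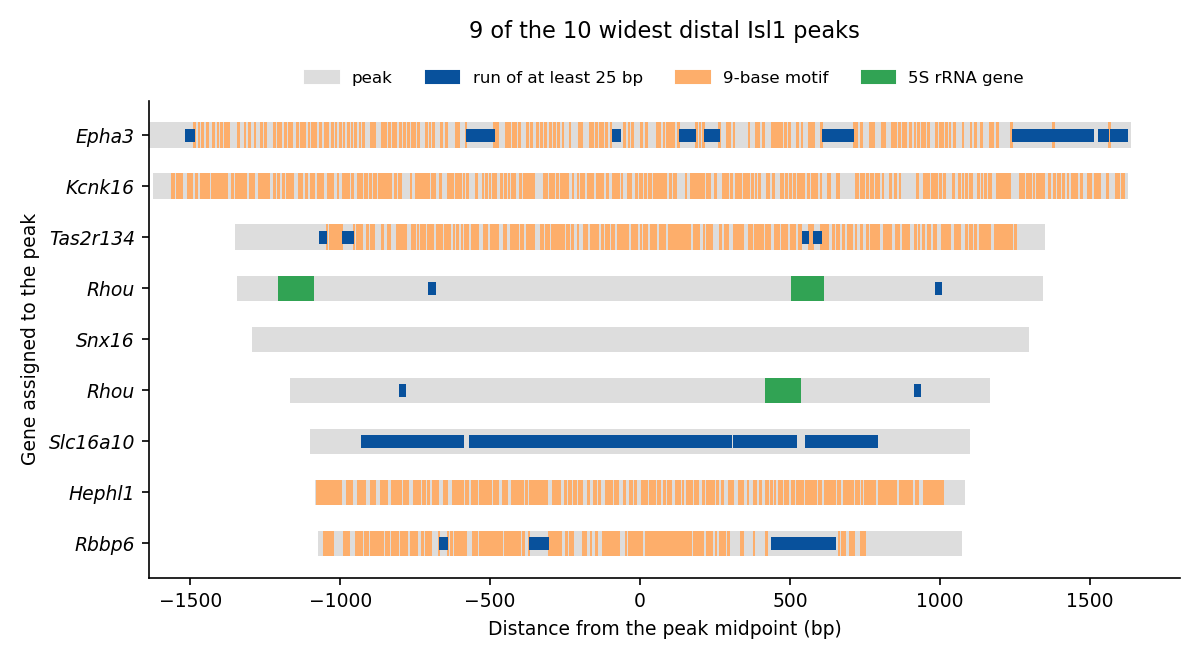
Map of 9 of the 10 widest distal Isl1 peaks, each drawn in grey from its start to its end around the midpoint in bp and named by the assigned gene, with runs of at least 25 bp in blue, copies of the 9-base motif in orange and 5S rRNA genes in green. The motif fills the peaks of Epha3, Kcnk16, Tas2r134, Hephl1 and Rbbp6, and the Snx16 peak holds neither motif nor run.

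The 9-base motif was present at least 5 times in 44 of the 250 wide peaks (17.6%, interval 13.4 to 22.8%). It was chosen after the widest sequences had been seen, so its share in those peaks is a description. The share was 1.79% in peaks from 700 to under 1000 bp, 0.471% from 500 to under 700 bp and 0.165% from 300 to under 500 bp, and 0 of 777 peaks under 300 bp had it. Longer peaks offer more bases in which the motif can occur. Among the 44, the number of copies ran from 8 to 257 with a median of 62.5, and the GC content from 48.0 to 66.4%. Runs were missing in 6 of them, and 16 had a run of at least 100 bp. Peaks of this family on different chromosomes shared sequence: the peaks of Hephl1 on chromosome 9 and Rbm43 on chromosome 2 had 272 distinct 31-base words in common, 32.2% and 31.5% of those in each.

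No run was found in 32 wide peaks, of which 27 were tandem repeats over the whole peak. The 10 widest of the 32 were peaks of Kcnk16, Snx16, Hephl1, Cldn14, Spin4, Smurf2 with 2 peaks, Fto, Gpr151 and Klhdc4. The neighbouring Smurf2 peaks, chr11:106805771-106807202 and chr11:106808368-106810079, were built of the same 53 bp unit, with 99.7% and 93.7% of bases equal to the base 1 unit earlier, and lay 24.5 and 27.2 kb upstream of the TSS. Both Klhdc4 peaks lay in an intron of the gene, with a 51 bp unit repeated at 99.1% and 97.9%, and unlike the Smurf2 unit it contained CpG. The Cldn14 peak, in an intron of this claudin gene, had the longest unit, 122 bp, repeated at 69.0%.

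Neither a run nor a tandem repeat with a unit of up to 150 bp was found in 5 wide peaks. Of these, 2 were assigned to Spin4 on the X chromosome, and Bcap29, Shroom3 and Ube3a had 1 each. The Shroom3 peak, chr5:93370941-93372061, lay over a coding exon 44.5 kb downstream of the assigned TSS, with a GC content of 73.0% and an observed over expected CpG ratio of 0.88, where the median of the wide peaks was 0.08. All 5 of the 31-base words sampled along it were found at that place alone in the genome. The Spin4 peaks, 1859 and 1071 bp wide, shared 627 distinct 31-base words with each other, and none of the 5 sampled in either was unique. Repeats with a unit longer than 150 bp were not searched for, in these peaks or in others.

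Sequence that was not unique in the genome was common under the wide peaks. Copies inside the peak itself were counted too, so a tandem repeat can lack unique words without having copies elsewhere. None of 5 sampled 31-base words was unique in 44 of the 250 (17.6%, interval 13.4 to 22.8%), against 3.30% of the narrower peaks, a difference of 14.3 points (interval 10.1 to 19.5), and 7.12% of peaks from 700 to under 1000 bp. The median copy number of these words was 7 in the wide peaks (interval 4 to 15) and 1 in the narrower ones. All 5 words were unique in 3.60% of the wide and 8.32% of the narrower peaks, and in 10.8% of those from 700 to under 1000 bp. Reads were mapped with Bowtie2 at default settings, by which a read that matches several places equally well is placed at 1 of them. The part of this in the width of the peaks was not tested.

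The 3 wide peaks of Rhou lay over an array of 51 annotated 5S ribosomal RNA (rRNA) genes on chromosome 8, with a median spacing of 1698 bp between the genes. Each of the 3 overlapped at least 1 of these genes, and no other wide distal peak overlapped an annotated rRNA gene. The Rhou TSS lies 30.8 to 41.5 kb away from them. The peaks shared 57.3 to 96.8% of their distinct 31-base words with one another and had no unique word among those sampled. Their repeat unit is longer than the 150 bp searched, so they counted as peaks with short runs.

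The wide peaks lay at the same range of distances from genes as the narrower ones. The median distance to the assigned TSS was 49.8 kb (interval 41.5 to 64.8 kb), against 48.1 kb. Upstream of the TSS lay 121 of 250 (48.4%, interval 42.3 to 54.6%), against 48.0%, a difference of 0.40 points (interval -5.74 to 6.60). Beyond 100 kb lay 31.2% of the wide and 31.04% of the narrower peaks. Within 10 kb of the TSS lay 29 wide peaks (11.6%, interval 8.20 to 16.2%), against 15.9%, a difference of -4.33 points (interval -7.75 to 0.25), which includes 0. By the distance of the midpoint to the closest protein-coding TSS in GENCODE, 3 wide peaks (1.2%) lay within 1 kb of a TSS that the deposited distance does not refer to, and the share was 1.18% in the narrower peaks.

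**Figure D5:**
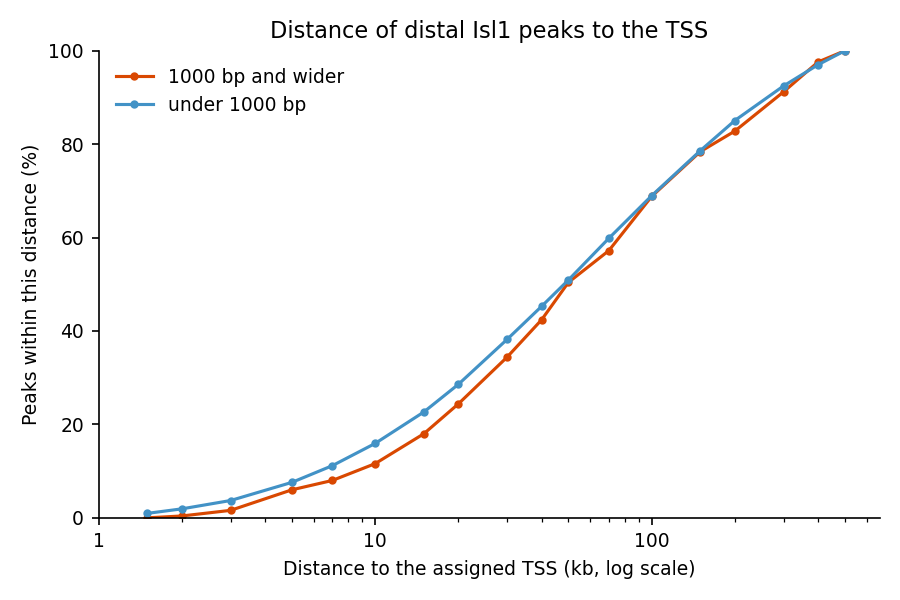
Cumulative share of distal Isl1 peaks, in percent, within each distance in kb, on a log axis, of the TSS that the list assigns, for peaks of at least 1000 bp and under 1000 bp. Within 10 kb lie 11.6% of the wide and 15.9% of the narrower peaks, and the lines meet at 100 kb.

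Midpoints lay in introns in 94 wide peaks (37.6%, interval 31.8 to 43.7%), between genes in 154 (61.6%) and in exons in 2, against 39.6% in introns for the narrower peaks. For the 79 intronic peaks with a run and a protein-coding gene on a single strand, purines of the longest run were on the sense strand in 27 (34.2%, interval 24.7 to 45.2%). The share was 41.0% in 12720 narrower peaks, which lies inside this interval, and 36.0% in those from 700 to under 1000 bp. The 5 wide peaks closest to a TSS belonged to Uba1, the ubiquitin-activating enzyme, at 1.74 kb, Slc51a at 2.43 kb, Vmn2r54 at 2.48 kb, Klhdc4 at 2.83 kb and the predicted gene Gm13547 at 3.24 kb. The Uba1 peak, chrX:20236785-20237948, lay in an intron with a run of 498 bp, and GENCODE places another Uba1 TSS 0.813 kb from its midpoint. At Gm13547 a single run of 752 bp made up 67.9% of the peak.

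The next peak of the list lay 14.1 kb from a wide peak in the median (interval 11.2 to 17.1 kb, which includes the 16.8 kb of narrower peaks). It lay within 5 kb for 24.4% against 18.8%, a difference of 5.64 points (interval 0.72 to 11.3), and for 19.2% of peaks from 700 to under 1000 bp. Another wide distal peak lay within 10 kb of 11 of the wide peaks. Some of these neighbours, as at Smurf2 and Klhdc4, were built of the same repeat unit. The part of such neighbours in the difference was not tested. On the X chromosome lay 14 wide peaks (5.60%), against 4.84% of the narrower ones.

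By gene, 237 of the 10723 genes with a distal peak had a wide one, 2.21% of them. A single wide peak was found in 225 genes, 2 in 11 genes and 3 in Rhou. The share of genes with a wide peak was 0.653% for genes with 1 distal peak, 1.68% for 2 to 4 peaks, 4.35% for 5 to 9 and 10.5% for 10 to 19. Counted by peak instead, 0.653% of the distal peaks were wide in the first of these classes, and 0.642%, 0.740% and 0.865% in the others. Of the 83 genes with at least 20 distal peaks, 7 had a wide one (8.43%, interval 4.15 to 16.4%), and 8 of their 2083 peaks were wide (0.384%). The share of genes with a wide peak thus rose with the number of peaks up to the class of 10 to 19 and was not higher in the class above it. The genes with 2 wide peaks and the largest summed width were Epha3, with 5223 bp in all, Rbbp6, Smurf2, Spin4, Ccser2, Klhdc4, Gm597, Spag16 and Rbfox1, a neuronal splicing factor with 51 peaks in the list.

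Genes of heart development were set against the background of 2.21% of genes and 0.707% of peaks. Of 43 cardiac transcription factors listed, 36 had a distal peak and 0 had a wide one, which allows a share of up to 9.64% (upper limit of the Wilson interval) and does not depart from the background. Their 244 distal peaks had a median width of 478.5 bp, and the widest, 877 bp with a run of 317 bp, lay 37.3 kb downstream of the TSS of Isl1 itself, at chr13:117062133-117063010. It was followed by peaks of 861 and 852 bp upstream of Nr2f2, a factor of atrial identity, and of 848 bp at Six4. No wide peak was assigned to the 44 heart signalling genes, the 12 sarcomere genes, the 19 chromatin regulators or the 6 housekeeping genes with a distal peak. The upper limits of these shares were 8.03%, 24.2%, 16.8% and 39.0%, so that none of them departs from the background. At signalling genes the widest was 988 bp, downstream of the TSS of Wnt2.

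Ion channel and calcium handling genes had 2 of 16 with a wide peak (12.5%, interval 3.50 to 36.0%). The peak assigned to Gja1, the main connexin of working myocardium, was 1358 bp wide and lay 364.7 kb downstream of the TSS in intergenic sequence, and its 7 runs, the longest of 309 bp, made up 85.6% of it. The closest protein-coding TSS to this peak in GENCODE is that of Gm9956, 3.14 kb away. The peak assigned to Slc8a1, the sodium-calcium exchanger of cardiomyocytes, was 1039 bp wide and lay 145.9 kb upstream, with 6 runs and the longest of 342 bp. GENCODE places the closest Slc8a1 TSS 234.7 kb away. By peak, 2 of 96 were wide (2.08%), too few to read anything particular to this group.

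Genes of neuronal adhesion had 4 of 31 with a wide peak (12.9%, interval 5.13 to 28.9%), and axon guidance genes 2 of 25 (8.00%, interval 2.22 to 24.97%). These groups had 506 and 274 distal peaks, more than any of the other lists, of which 4 (0.791%) and 3 (1.09%) were wide, shares near the background of 0.707%. The synaptic adhesion gene Lrrtm4 had a peak of 1681 bp in its intron with 16 runs and 60 copies of the 9-base motif. The contactin genes Cntn4 and Cntn6 had peaks of 1154 and 1145 bp with longest runs of 336 and 264 bp, and the peak in an intron of the cell adhesion gene Dscam was 1119 bp wide with 1 run of 505 bp. Both Epha3 peaks, of 3271 and 1952 bp, held the motif, in 155 and 80 copies. The 1082 bp peak in an intron of the semaphorin gene Sema3d held 79 copies and no run.

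Outside these lists, several developmental genes were among the 237 genes with a wide peak. They were chosen after their values were seen, so they give no share for developmental genes. The Wnt antagonist gene Dkk2 had one of 1931 bp, 259.4 kb upstream, with 11 runs that made up 75.4% of it. Lef1, a nuclear effector of Wnt signalling, had a peak of 1037 bp, 45.7 kb upstream, in which all 5 sampled words were unique. Lrrc10, which encodes a leucine-rich repeat protein of cardiomyocytes, had a peak of 1042 bp with no run and 30 copies of the 9-base motif, 19.4 kb upstream. The homeobox gene Lbx1 and the Id family gene Id4 had peaks with 44 and 37 copies of the motif.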

How the data were processed

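ChIP-Seq peaks of 1 Isl1 ChIP sample of pooled E8.25-E9 cardiogenic regions were analysed. Per the labels and the methods, the authors mapped reads with Bowtie2 to mm9, marked and took out duplicates (Picard 1.136), called peaks at a fixed p-value threshold (MACS), left out blacklisted regions and gave each peak its nearest TSS. The list deposited by the authors holds positions and signed distances in bp without counts, heights or p-values, so depth is unknown. The methods intersect peaks of experimental replicates; whether this list is such an intersection is not given in the sources used here. A second header line was skipped.

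The members and lists were chosen with earlier results of these data known. Sequence was read from NCBIM37, the same assembly as mm9, and positions in genes from GENCODE vM1. Runs had at least 25 bases, central windows were 200 bp, and tandem shares were computed in 400 bp for units of 1 to 150 bp, the shortest unit within 3 points of the best being given. Copy numbers are those of 5 evenly spaced words of 31 bases, counted over the whole genome with the peak itself included. The 5S rRNA array and the 9-base motif were chosen after the sequences had been seen. Some genes and sequences that the rule below names are not reported here.

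Peaks named are the 10 widest, the 5 closest to a TSS, the 3 on each side of the width threshold, the 5 with the longest runs, the 10 widest without a run, those of the gene lists and the 10 genes with most wide peaks. The code was tested on simulated data with planted runs, repeats and shares. Alternatives covered width, distance, genes, chromosome X, identifiers, run and repeat definitions and annotation. Tools were samtools 1.23.1, pysam 0.24.0, numba 0.67.0, scipy 1.17.1 (with pandas 2.3.3 and numpy 2.4.6), and matplotlib 3.10.9, all under Python 3.11.15.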

Additional observations from a re-analysis of the deposited data

How the results depend on the processing

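Of 54 values recomputed under other settings, 39 stayed inside the interval of the value reported or within 1.5 times of a count, and 15 did not. With a width of at least 800 bp the wide distal peaks rose by 1000, to about 1.2e3, and their genes from 237 to 1086, 85.8% held a central run and 24.2% a CT or GA repeat. With a minimum raised by 250 bp, 69 peaks and 64 genes were left, with 42.0% upstream, 59.4% with a central run, a median longest run of 140.0 bp in 1000 bp and a median of 10.1 kb to the next peak. The run share was 58.4% with a run of at least 40 bp and 87.2% anywhere in the peak. The CT or GA share was 5.20% with 10 units and 42.8% anywhere in the peak. By the closest GENCODE TSS the median distance was 34.0 kb, and 36.6 kb for narrower peaks. Of alternatives chosen after seeing the data, a tandem share of at least 0.7 gave 75.2% and of at least 0.5 gave 87.2%, and without the 3 Rhou peaks the run share was 68.8%. Without chromosome X or genes with 20 or more peaks, none of the values recomputed left its interval. No paired analysis was possible because the list is a single table with no columns for replicates. Without heights or p-values, no stricter peak threshold could be applied.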

Other observations

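Wide peaks outside the distance range or with other identifiers were described alongside. The 11 wide peaks within 1 kb of the TSS of an NM_ gene differed most from the distal ones: 3 of them (27.3%, interval 9.75 to 56.6%) held a run anywhere, 1 was a tandem repeat, and the median GC content of the peak was 80.8% with a median observed over expected CpG ratio of 0.99. Of the 18 beyond 500 kb, 17 held a run and 17 were tandem repeats, with a median longest run of 406 bp. Of the 72 wide peaks without an NM_ identifier, 64 held a run and 42 were tandem repeats.

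Many of the latter lay over the same 5S rRNA array as the Rhou peaks. Within 2 kb of the array lay 37 peaks of the list, of which 25 were at least 1 kb wide, 32 were assigned to rRNA genes of RefSeq and 5 to Rhou. The widest of them, 3426 bp, was wider than the widest of the wide distal peaks, 3271 bp.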
